A study of Mus musculus with 30 samples.

Results

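The heat shock genes described here are 10 named mouse genes of the 55401 genes in the count tables. They were chosen by name from a list, and all 10 passed the filter on low counts in the exon data of each table. They comprise the transcription factor gene Hsf1, the stress-inducible HSP70 genes Hspa1a and Hspa1b, the constitutive HSP70 gene Hspa8, the cytosolic HSP90 genes Hsp90aa1 and Hsp90ab1, the co-chaperone genes Dnajb1 and Hsph1, and the mitochondrial chaperonin genes Hspd1 and Hspe1. No member passed an adjusted p of 0.05 together with a log2 fold change of 0.5 in any of the 15 exon comparisons. These are the reported fits, which have no term for the replicate number, and 0% to 0.0677% of all genes passed in them. The member with the lowest p-values was Hsf1, whose mean level was higher at each later time of SRCAP depletion, up to 1.42-fold at 8 h, with an adjusted p of 0.191. In exon counts of the SYAT time course and of the sorted SYAT cells after IAA, the 9 chaperone genes gave no estimate with an unadjusted p under 0.05. Over all genes, 1.02% to 16.1% had such a p, depending on the comparison. In parental CGR8 cells with IAA, Hspa8 and Hspe1 were higher and Hspa1b lower with such a p, beside 5.04% and 4.12% of all genes. Between control cells of the lines expressing dead or wild-type SRCAP, described below, Hspa1a was higher with one, beside 2.50% of all genes.

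HSF1 is the main transcription factor of the heat shock response. Under proteotoxic stress it forms trimers that bind heat shock elements, arrays of inverted nGAAn units, and activates chaperone genes. HSP70 and HSP90 proteins fold and hold client proteins and also keep HSF1 in check, while J-domain proteins such as DNAJB1 feed clients to HSP70. In unstressed embryonic stem cells the constitutive members Hspa8 and Hsp90ab1 are abundant, and the inducible genes Hspa1a and Hspa1b, which carry no intron, are low.

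The libraries are nuclear RNA-seq of mouse embryonic stem cells of the CGR8 line, in 30 libraries and 15 groups of 2. SYAT cells are CGR8 cells whose SRCAP, the ATPase of the complex that exchanges H2A for H2A.Z, carries a YPet-AID tag on both alleles; they express OsTir1 from an EF1a promoter and descend from 1 knock-in clone. The plant hormone auxin (indole-3-acetic acid, IAA) at 500 µM then triggers SRCAP degradation, and control cells carried the OsTir1 inhibitor auxinole instead. The SYAT time course covers 0, 2, 4, 6 and 8 h of IAA, and the parental CGR8 cells, which have no degron, were compared after 4 h of IAA. SYAT cells sorted in early (EG1) or late (LG1) G1 were compared after 1 h of IAA. Per the study's methods, these cells also stably expressed mCherry fused to a mitotic degron and were stained with Hoechst for sorting. Below, sorted cells means these EG1 and LG1 cells. The wtSRCAP and cdSRCAP lines, 1 clone each, are SYAT cells with a doxycycline-inducible mCherry fusion of wild-type or catalytically dead SRCAP. All of their libraries had 24 h of doxycycline, and 1 group per line also had 4 h of IAA. Per the study's methods, cells of both lines were sorted for high and matched mCherry levels shortly before RNA-seq. All cultures were in serum with LIF.

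Exon counts per library ranged from 45617992 to 60214521 in the CGR8 table, 17540823 to 22873893 in the time course, 19740778 to 26672402 in the sorted cells and 12236493 to 26369773 in the wtSRCAP and cdSRCAP lines. Values below are exon counts scaled to the library total with TMM factors (CPM), and each table was scaled on its own. In bulk libraries fewer cells with a transcript and less of it per cell cannot be told apart. The summed level of 9 embryonic stem cell markers lay between 1730 and 4950 CPM, against 5.12 to 46.8 CPM for 4 fibroblast markers, 0.817 to 13.3 for 4 primitive endoderm markers and 4.27 to 21.5 for 4 trophoblast markers. Srcap itself, whose loss is at the protein level, was at 39.9 to 60.2 CPM over the time course, so its transcript is no check of depletion. In the wtSRCAP and cdSRCAP lines its exon counts, 48.9 to 74.5 CPM, can include the transgene. Some libraries had a low share of mitochondrially encoded counts beside the rest of their table. It was 0.28% in 6 h of IAA replicate 2, against 1.07 to 1.27% in the other time course libraries. In wtSRCAP with IAA replicate 1 it was 0.188%, against 0.536 to 0.714% in the rest of its table. In CGR8 control replicate 1 it was 0.45%, against 0.933 to 1.53% in the rest. Immediate early genes summed to 667 CPM in the 6 h library, against 325 to 459 CPM elsewhere in the time course. The sum was 603 CPM in the wtSRCAP library, against 304 to 426 CPM, and 429 CPM in the CGR8 library, against 308 to 363 CPM.

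In GRCm38 coordinates of GENCODE vM21, Hspd1 (chr1:55077835-55088243, minus strand) and Hspe1 (chr1:55088132-55091307, plus strand) lie head to head and overlap at their 5′ ends. Hspa1b (chr17:34956436-34959238) and Hspa1a (chr17:34969190-34972156) are neighbouring genes of 1 exon on the minus strand. Hsp90ab1 lies at chr17:45567775-45573271, Hsp90aa1 at chr12:110690605-110702728, Hspa8 at chr9:40800984-40810087, Hsph1 at chr5:149614287-149636376, Dnajb1 at chr8:83608193-83612653 and Hsf1 at chr15:76477422-76501913. RefSeq promoter windows, 250 bases before to 50 after the start, were found for 6 of the 10 members. Stretches around a heat shock element match are printed for the promoter between Hspd1 and Hspe1, which serves a divergent pair, and for the duplicated promoters of Hspa1a and Hspa1b, whose values are hard to tell apart.
Hspe1 and Hspd1, chr1:55088053-55088082, plus strand: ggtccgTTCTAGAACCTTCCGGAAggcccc
Hspa1a, chr17:34972213-34972300, minus strand: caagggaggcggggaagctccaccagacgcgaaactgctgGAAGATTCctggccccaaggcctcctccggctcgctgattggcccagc
Hspa1b, chr17:34959295-34959382, minus strand: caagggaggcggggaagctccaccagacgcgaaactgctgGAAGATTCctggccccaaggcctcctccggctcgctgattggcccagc

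Capitals mark matches to heat shock element units. The window between Hspd1 and Hspe1 holds both 3-unit forms that were searched, GAANNTTCNNGAA and its reverse complement TTCNNGAANNTTC, in overlapping register from -89 to -72 of the Hspe1 start. Such a 3-unit match was present in 0.603% of all 32851 promoter windows. The windows of Hspa1a and Hspa1b hold only the 2-unit form GAANNTTC, at -104 to -97. That form was found in 7.86% of windows, and either 2-unit form in 15.1%. The Hspa1a and Hspa1b windows were identical over these 88 bases and at 247 of the 250 bases upstream of the start. Hsph1 holds a 3-unit match just after its starts, and neither window of Dnajb1 holds a 2-unit or 3-unit match. The transcripts of Hspa1a and Hspa1b share 1524 stretches of 75 bases, 52.7% of those in Hspa1a and 55.8% of those in Hspa1b, so how many of their reads were assigned depends on the counting, and each gene's value is uncertain. Hspa1a also overlaps the gene Gm20481 on the other strand, and the strand setting of the counting is not stated in the sources used here. No 75-base stretch was shared between Hsp90aa1 and Hsp90ab1.

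Levels between genes were compared per kilobase of exon. In SYAT control cells Hsp90ab1 was highest at 1928 and 2028 CPM per kb in the 2 control libraries, followed by Hsp90aa1 at 476 and 592. Hspa8 (366 and 379) and the matrix chaperonin gene Hspd1 (358 and 368) came next, and their ranges overlapped. Hspe1, the co-chaperonin partner of Hspd1, stood at 116 and 140.3. The HSP110 exchange factor gene Hsph1 was at 34.3 and 38.1, Dnajb1 at 24.6 and 26.6, and Hsf1 at 6.10 and 6.78. The inducible genes were lowest, with Hspa1b at 4.30 and 4.39 and Hspa1a at 1.11 and 1.13. The order was the same in the CGR8 controls except that Hspa1b (6.53 and 6.61) and Hsf1 (6.48 and 6.60) overlapped. Together the 10 genes took 0.655 to 1.47% of exon counts across the libraries.

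In the SYAT time course, the question was which genes respond as SRCAP is lost. Hsf1 was measured at 43.3 and 48.2 CPM in control cells, 46.9 and 56.2 CPM after 2 h, 56.15 and 62.1 CPM after 4 h, 59.2 and 68.65 CPM after 6 h and 59.8 and 70.5 CPM after 8 h. Both libraries lay above both controls from 4 h on, whereas the 2 h libraries overlapped them. Replicate 2 was the higher library at all 5 times. The log2 fold change of Hsf1 was 0.17 ± 0.16 (SE) at 2 h, 0.37 ± 0.16 at 4 h, 0.48 ± 0.16 at 6 h and 0.51 ± 0.16 at 8 h, a 1.42-fold higher level at the last time. The edgeR quasi-likelihood p was 0.294, 0.0386, 0.0114 and 0.00832 before adjustment, and 1.0, 0.503, 0.186 and 0.191 after Benjamini-Hochberg adjustment over 19205 genes. With the replicate number as a term the log2 fold change at 8 h was 0.51 with an adjusted p of 0.0316, which passed the adjusted p and fold, as did 3.30% of all genes.

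Hsf1 was the only member with an unadjusted p under 0.05 and a higher level at 4, 6 and 8 h, 1 of 10 each time, where 3.09%, 7.93% and 5.13% of all genes tested did so. At 2 h no member did (1.37% of all genes), and at none of the 4 times was a member lower with such a p, where 2.55%, 6.00%, 8.21% and 8.44% of all genes were. By the adjusted p and fold, 0 of 10 members were called, as were 0% of all genes at 2 h, 0% at 4 h, 0.0677% at 6 h and 0.00521% at 8 h. With hours of IAA as a number in 1 edgeR fit over all 10 libraries, an analysis chosen after these values were seen, Hsf1 had a slope of 0.0666 ± 0.0162 (SE) log2 units per hour with an adjusted p of 0.040. The other 9 members had slopes between -0.0142 and 0.0289 and adjusted p-values of 0.356 or more. In that fit 0.802% of genes had a positive slope and passed. At single times, the unadjusted p of Hsf1 stayed under 0.05 without the one or the other 6 h library but not without 0 h replicate 1 (log2 fold changes of 0.30, 0.41 and 0.43 at 4, 6 and 8 h). At 8 h it was also above 0.05 without replicate 2 (0.39), and at 4 h it was above 0.05 without any 1 of the 4 libraries (0.30 to 0.45). The Hsf1 slope passed in 2 of 10 fits that left out 1 library, with adjusted p-values of 0.0194 to 0.210, and it was positive in all of them, from 0.0581 to 0.0788. The 2 fits that passed were without 6 h replicate 2 (0.0194) and without 8 h replicate 1 (0.0323), and the highest p came without 0 h replicate 1.

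**Figure D1:**
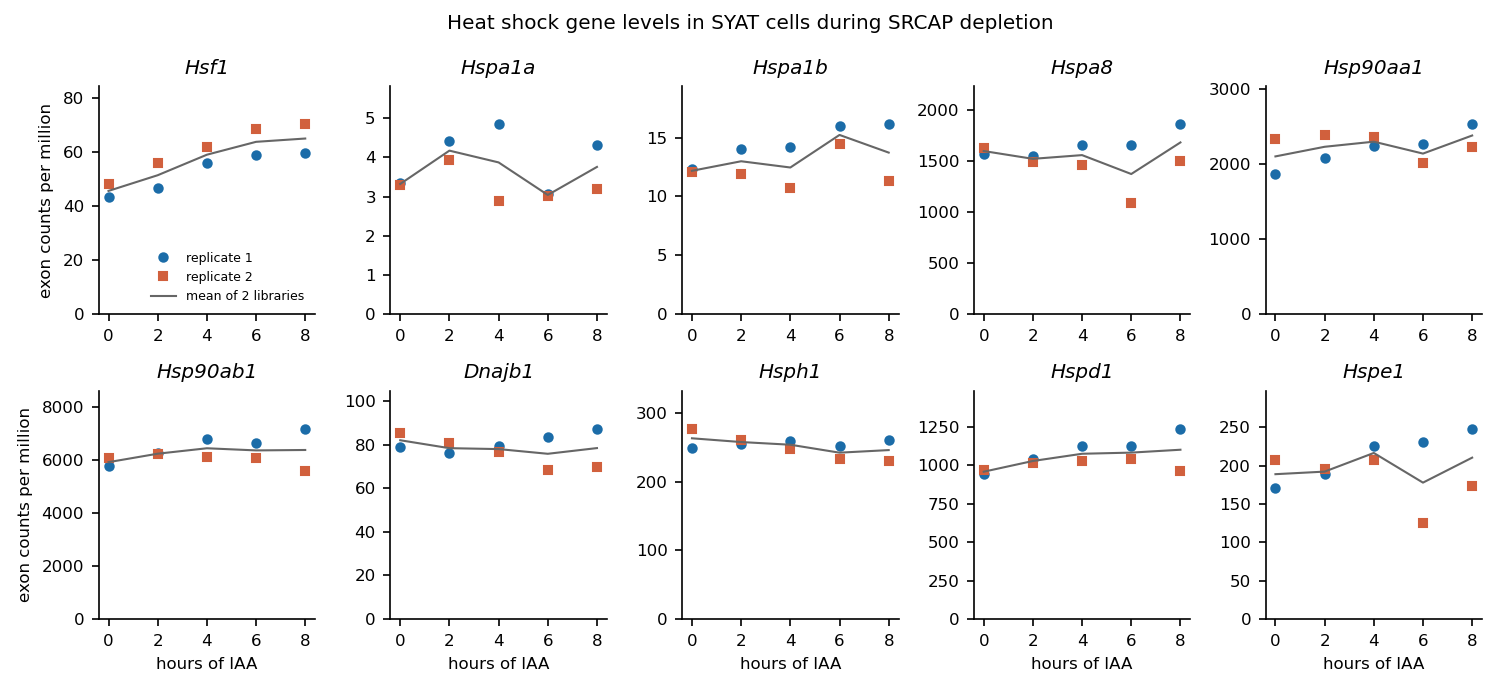
Exon CPM (vertical axes, from 0) of each member against hours of IAA in SYAT cells; circles and squares are the libraries numbered replicate 1 and 2, and the line joins the mean of both. Hsf1 lies at 43.3 and 48.2 CPM at 0 h and at 59.8 and 70.5 CPM at 8 h, and 6 h replicate 2 is the lowest library for Hspa8 and Hspe1.

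Among the inducible chaperone genes, Hspa1a was at 3.34 and 3.30 CPM in control cells, 4.42 and 3.93 CPM after 2 h, 4.85 and 2.89 CPM after 4 h, 3.08 and 3.01 CPM after 6 h and 4.31 and 3.21 CPM after 8 h, on 49 to 92 reads a library. Both 2 h libraries lay above the controls, both 6 h libraries below them, and the 4 h and 8 h libraries on either side. At 8 h its log2 fold change was 0.17 with a 95% interval of -0.51 to 0.86. Hspa1b was at 12.3 and 12.1 CPM in control cells and at 16.15 and 11.3 CPM after 8 h, and its interval of -0.33 to 0.67 also held 0. Dnajb1 lay between 68.3 and 87.2 CPM over the 10 libraries and Hsph1 between 230.6 and 276.6 CPM. Their log2 fold changes at 8 h were -0.07 (interval -0.40 to 0.27) and -0.10 (-0.37 to 0.17).

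Hsp90ab1 (5594 to 7190 CPM) and Hsp90aa1 (1872 to 2530 CPM), which encode the abundant cytosolic HSP90 proteins, had log2 fold changes of 0.03 to 0.18 across the 4 times. Hspd1 was the member with the second lowest p at 8 h, with 945 and 973 CPM in control cells and 1238 and 966.5 CPM after 8 h, and its log2 fold change of 0.20 ± 0.14 came with an unadjusted p of 0.183. Hspa8, which uncoats clathrin vesicles and folds nascent chains, was at 1575 and 1629 CPM in control cells and at 1663 and 1090 CPM after 6 h. Hspe1 was at 171 and 207 CPM in control cells and at 230.4 and 125 CPM after 6 h. The low value of each was 6 h replicate 2, the library with 0.28% mitochondrially encoded counts, and the part of that library in these values was not tested. Without it, the log2 fold changes of Hspa8 and Hspe1 at 6 h were 0.06 and 0.29, and without 6 h replicate 1 they were -0.55 and -0.59. Without 6 h replicate 1, which leaves the low library alone, Hspa8 and Hsf1 passed the adjusted p and fold, as did 15.4% of all 20497 genes tested in that fit. The median log2 fold change of the 10 members was 0.08, 0.13, -0.03 and 0.16 at 2, 4, 6 and 8 h, beside medians of 0.00, 0.02, 0.01 and 0.03 over all genes tested.

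**Figure D2:**
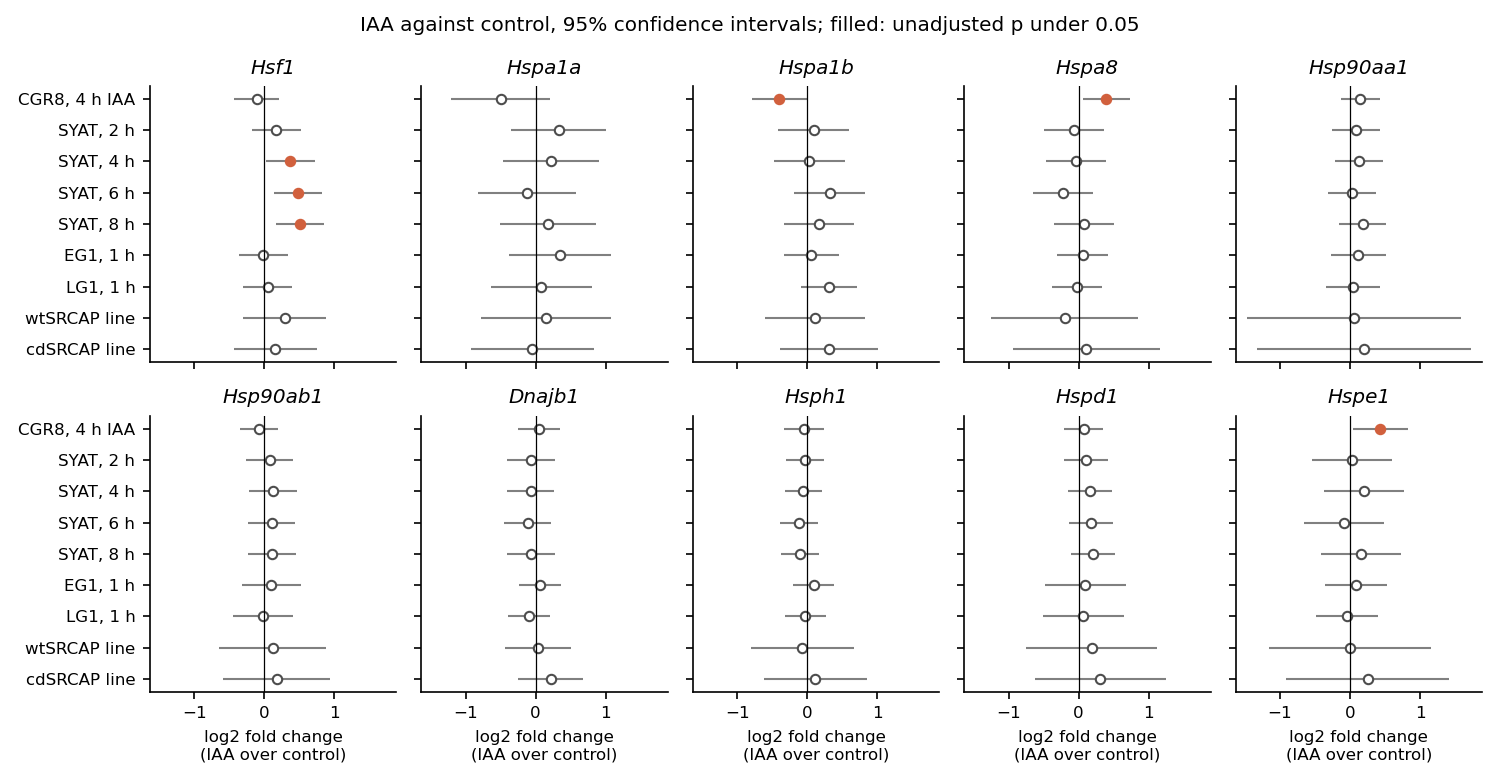
Log2 fold change of IAA over control (horizontal axes) for each member in the 9 IAA comparisons (rows), with 95% confidence intervals of the edgeR fit; filled points have an unadjusted p under 0.05. Filled points appear for Hsf1 at 4, 6 and 8 h in SYAT cells and for Hspa1b, Hspa8 and Hspe1 in CGR8 cells, and intervals are widest in the wtSRCAP and cdSRCAP lines.

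Parental CGR8 cells served to show what IAA does without a degron. Hsf1 was at 46.9 and 46.0 CPM in control cells and 44.8 and 41.2 CPM after 4 h of IAA, a log2 fold change of -0.11 with an interval of -0.43 to 0.21. The libraries with IAA were both lower than the controls. In SYAT cells the estimate at 4 h was 0.37 with an interval of 0.02 to 0.72, which overlaps that of the CGR8 cells. The difference between the cell lines was not tested, as their counts were fitted separately.

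In CGR8 cells 3 other members had an unadjusted p under 0.05. Hspa8 was at 1592 and 2018 CPM in control cells and at 2250 and 2504 CPM with IAA, a log2 difference of 0.40 ± 0.15 (unadjusted p = 0.0248). Hspe1 was at 105 and 128 CPM against 136 and 179 CPM, a difference of 0.43 ± 0.17 (unadjusted p = 0.0349). Hspa1b was lower, at 18.3 and 18.5 CPM in control cells and 15.1 and 12.9 CPM with IAA, a difference of -0.40 ± 0.17 (unadjusted p = 0.0479). In all 3 genes, which are named here for their low p, the groups did not overlap. Thus 2 of 10 members were higher and 1 lower by an unadjusted p under 0.05, where 5.04% and 4.12% of the 20250 genes were, and the smallest adjusted p among them was 0.540. By adjusted p and fold 0 of 10 were called, beside 0.00988% of all genes. The share of mitochondrially encoded counts was 0.45 and 0.936% in control cells and 0.933 and 1.53% with IAA, and its lowest and highest libraries were also those of Hspa8 and Hspe1. Its part in these differences was not tested. Without CGR8 control replicate 2, Hspa8 and Hspe1 passed the adjusted p and fold, as did 10.9% of all 21680 genes tested in that fit, and their log2 differences were 0.58 and 0.59; without control replicate 1 they were 0.25 and 0.31. For Hspa1b, leaving out any 1 library gave an unadjusted p above 0.05 and -0.28 to -0.50. Hspa1a followed Hspa1b, with 4.02 and 3.82 CPM in control cells and 3.36 and 2.18 CPM with IAA, and with the reads of both genes summed the log2 difference was -0.41 ± 0.17 (unadjusted p = 0.0406, adjusted p = 0.540). In SYAT cells the summed value at 4 h was 0.07, with an interval of -0.43 to 0.57.

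In the sorted G1 cells, 1 h of IAA gave no member an unadjusted p under 0.05. In EG1, 9 of 10 estimates were above 0, with a range of -0.01 to 0.35 and a median of 0.09, beside 0.00 for all genes. In LG1, 5 were above and 5 below 0, from -0.10 to 0.31. Hsf1 stood at 43.9 and 46.4 CPM in EG1 controls and 46.35 and 43.15 CPM with IAA, and at 44.5 and 39.8 CPM in LG1 controls and 48.6 and 38.65 CPM with IAA, so that the groups overlapped. Hspa1a, at 6.64 and 5.57 CPM against 9.95 and 5.59 CPM, had the largest estimate in EG1, with the high value in replicate 1. Its interval ran from -0.38 to 1.07. Hspa1b had the largest one in LG1, with 9.54 and 10.3 CPM in controls and 11.8 and 12.8 CPM with IAA; these groups did not overlap, and the unadjusted p was 0.113. By the unadjusted p and a log2 bound of 0.25, thresholds the study used on intronic reads and that were applied here to exon counts with edgeR, 0 of 10 members were called in EG1 and 0 in LG1, where 1.22% and 1.02% of 21020 genes were. By adjusted p and fold, 0 of 10 members and 0% of all genes were called in each of the 5 sorted comparisons.

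Between LG1 and EG1 controls no member had an unadjusted p under 0.05 (1.44% of all genes in either direction), and none did between the phases with IAA (2.31%). The smallest p between the controls was that of Dnajb1, at 73.85 and 85.3 CPM in EG1 and 92.9 and 91.9 CPM in LG1, a log2 difference of 0.22 ± 0.13 (unadjusted p = 0.130). These groups did not overlap, and with IAA the difference was 0.06. The effect of IAA in LG1 minus that in EG1 lay between -0.26 and 0.25 for the 10 genes, and 0 had an unadjusted p under 0.05 (0.699% of all genes). The adjusted p was 1.0 for all 10 members in the 5 sorted comparisons.

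The wtSRCAP and cdSRCAP lines ask whether SRCAP with or without catalysis replaces the degraded protein. Hsp90aa1 was at 820 and 1962 CPM in the wtSRCAP controls, 703 and 2184 CPM in wtSRCAP with IAA, 645 and 2060 CPM in the cdSRCAP controls and 986 and 2117 CPM in cdSRCAP with IAA, with replicate 1 given first. Replicate 1 was thus the lower library in all 4 groups, by 2.15 to 3.19 times, and the groups overlapped. Hspe1 (1.53 to 2.71 times), Hspa8 (1.42 to 2.66 times), Hspd1 (1.38 to 2.05 times) and Hsp90ab1 (1.28 to 1.65 times) showed the same split. So did Hsph1 (1.16 to 1.71 times), Hspa1b (1.1 to 1.56 times) and Dnajb1 (1.05 to 1.24 times). Hspa1a went both ways, with replicate 2 at 0.716 to 1.37 times replicate 1. Hsf1 showed the opposite split, with replicate 2 at 0.724 to 0.831 times replicate 1. The reported fit has no term for the replicate number, so this split counts as spread within the groups. Its 95% intervals of the IAA effect were correspondingly wide, reaching from -1.47 to 1.58 for Hsp90aa1 in the wtSRCAP line. With the replicate number as a term, 612 genes passed the adjusted p and fold after IAA in the wtSRCAP line and 345 in the cdSRCAP line. Without it these were 1 and 0, and no member passed in either fit.

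Hsf1 in these lines was at 51.6 and 42.9 CPM in the wtSRCAP controls and 67.1 and 48.6 CPM with IAA, and at 57.6 and 44.7 CPM in the cdSRCAP controls and 66.1 and 48.1 CPM with IAA. The groups overlapped in both lines. Its log2 fold change was 0.29 (interval -0.30 to 0.88) in the wtSRCAP line and 0.16 (-0.43 to 0.75) in the cdSRCAP line, and the difference of these effects, -0.13, had an interval of -0.97 to 0.70. Between equally numbered libraries Hsf1 was higher with IAA in 4 of 4 pairs, and with the replicate number as a term the values were 0.28 (edgeR adjusted p = 0.358) and 0.15 (adjusted p = 0.715), no call in either line. Over the 10 members 0 had an unadjusted p under 0.05 after IAA in either line, beside 7.40% of all 19111 genes in the wtSRCAP line and 5.64% in the cdSRCAP line. By adjusted p and fold 0 of 10 were called, with 0.00523% and 0% of all genes.

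**Figure D3:**
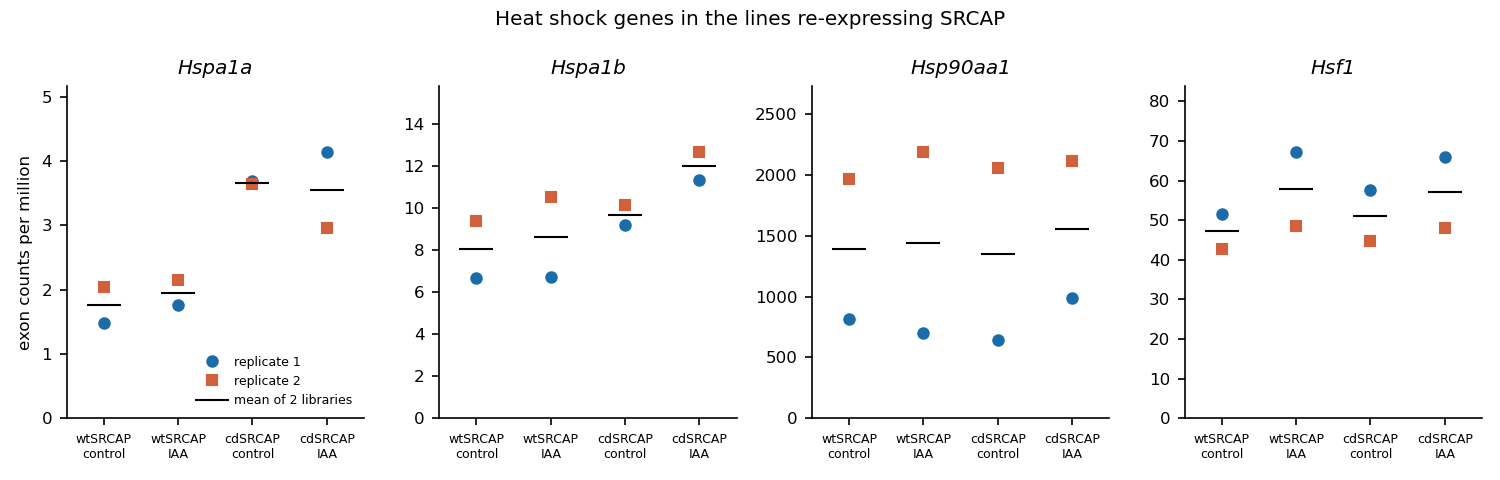
Exon CPM (vertical axes, from 0) of 4 members in the wtSRCAP and cdSRCAP lines without and with 4 h of IAA; circles and squares are replicates 1 and 2, and bars are the mean of both. Hspa1a lies at 1.49 to 2.15 CPM in the wtSRCAP line and 2.96 to 4.13 CPM in the cdSRCAP line, and the replicate 1 libraries are lower in Hsp90aa1 and higher in Hsf1.

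Between the lines, the exon count with the smallest p among the members was that of Hspa1a. It was at 1.49 and 2.04 CPM in the wtSRCAP controls and 3.69 and 3.64 CPM in the cdSRCAP controls, and at 1.76 and 2.15 CPM against 4.13 and 2.96 CPM with IAA. All 4 cdSRCAP libraries lay above all 4 wtSRCAP libraries. The log2 difference was 1.04 ± 0.40 in the controls, with an unadjusted p of 0.0286 and an adjusted p of 1.0, and 0.84 ± 0.40 with IAA, with an unadjusted p of 0.0648. This was 1 of 10 members in the controls, where 2.50% of genes were higher with such a p, and 0 of 10 with IAA, where 5.03% were so in either direction. It rests on 18 to 94 reads of Hspa1a per library, and without wtSRCAP control replicate 1 the difference in the controls was 0.83 (unadjusted p = 0.154). With Hspa1a and Hspa1b summed, 8.16 and 11.4 CPM in the wtSRCAP controls stood against 12.9 and 13.8 CPM in the cdSRCAP controls (log2 difference 0.44 ± 0.29, unadjusted p = 0.164). Each line is 1 clone, so clone and SRCAP form cannot be told apart. By adjusted p and fold 0 of 10 members were called between the lines without and with IAA and for the difference of the IAA effects, beside 0%, 0.00523% and 0% of all genes.

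Intron counts report on unspliced RNA and exist for 8 members. The deposited intron columns of the time course and of EG1 also held exonic reads for these 8 members. They stood at 98.7 to 131% of the exon column in the time course and 100.0 to 142% in EG1. For Hspa8 they came to between 2 and 58 reads more than the exon column over the 10 time course libraries. In CGR8 cells the Hspa8 intron column was 0.201 to 0.236% of its exon column. The exon column was therefore subtracted for these libraries, with negative differences set to 0, an alternative chosen after the files were seen. Hspe1 was left out there because its difference was negative in most time course libraries, at -66 to 31 reads. In EG1 the Hspe1 difference was 62 to 163 reads. Over all genes the difference was negative in some library for 20963 of 35880 genes of the time course. In the EG1 libraries it was so for 19430 of 36790 genes, those with an exon count in any EG1 or LG1 library. On this scale Hsf1 was again higher, with log2 fold changes of 0.50 ± 0.20 at 4 h, 0.61 ± 0.20 at 6 h and 0.54 ± 0.20 at 8 h (unadjusted p = 0.0410, 0.0179 and 0.0296). It was the only one of 7 members to reach such a p, where 4.57%, 5.99% and 5.81% of genes were higher with one. Its adjusted p-values were 0.425, 0.285 and 0.324. The intron difference of Hsf1 rested on 150 to 539 reads a library.

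In the CGR8 table, 5 of 8 members had intron estimates below 0 after IAA, and only Dnajb1 had an unadjusted p under 0.05. Its introns were at 22.2 and 6.59 CPM in control cells and 4.67 and 5.53 CPM with IAA, on 27 to 86 reads. The log2 difference was -1.47 ± 0.63 (unadjusted p = 0.0440, adjusted p = 0.925), 1 of 8 members, where 2.68% of genes were lower, and 0 of 8 were called by adjusted p and fold (0.022% of all genes). Control replicate 1 held the high value, and without it the difference was -0.37 (unadjusted p = 0.571). Without control replicate 2, introns of Dnajb1, Hsp90aa1 and Hsp90ab1 passed the adjusted p and fold, as did 7.74% of all genes in that fit. In the wtSRCAP line with IAA, 3 of 8 members had a higher intron level with an unadjusted p under 0.05, where 5.76% of 12702 genes did. Hspa8 introns were at 34.0 and 31.4 CPM in controls and 42.5 and 53.65 CPM with IAA (log2 difference 0.57 ± 0.23). Hsp90ab1 introns were at 118.5 and 98.8 CPM against 228.4 and 117 CPM, and the high value is the library with 0.188% mitochondrially encoded counts, without which the difference was 0.09 in place of 0.655. Dnajb1 introns were at 2.53 and 1.79 CPM against 7.44 and 6.44 CPM, on 7 to 27 reads. The smallest adjusted p of the 3 was 0.357, and 0 of 8 were called by adjusted p and fold (0.299% of all genes).

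In the cdSRCAP line with IAA no member reached an unadjusted p under 0.05 in introns, beside 11.3% of genes in either direction. Hspa8 introns there were at 29.6 and 38.3 CPM in controls and 46.8 and 45.1 CPM with IAA (log2 difference 0.43 ± 0.23), so that the groups did not overlap in either line. Comparing the lines with IAA, introns of Hsp90ab1 (log2 difference -0.73 ± 0.28) and Hspe1 (-0.49 ± 0.20) were lower in cdSRCAP, 2 of 8 members where 4.39% of genes were lower by an unadjusted p under 0.05, with adjusted p-values of 0.437 and 0.452; 0 of 8 were called by adjusted p and fold (0.0157%). Without the wtSRCAP library of low mitochondrial share, the Hsp90ab1 difference was -0.16. In LG1 cells intron estimates after IAA ran from -0.01 (Hsph1) to 0.31 (Hsp90aa1).

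The wider chaperone network, a list of 59 further genes in 9 groups, gave 0 calls by adjusted p and fold in each of the 15 exon comparisons, with 55 or 56 of its genes tested. After 6 h of IAA in SYAT cells 5 were higher and 2 lower by an unadjusted p under 0.05, where 7.93% and 8.21% of all genes were. Those higher were in the HSP90 co-chaperone group (2 of 8) and the cytosolic chaperonin CCT (3 of 8, Cct3 at a log2 fold change of 0.44 and Cct7 at 0.46), and of those lower 1 was an HSP90 co-chaperone gene and the other Hspa13. The median over the tested list was 0.13, beside 0.01 for all genes. At 2, 4 and 8 h the counts were 0, 0 and 0 higher and 0, 1 and 1 lower, beside 1.37%, 3.09% and 5.13% higher and 2.55%, 6.00% and 8.44% lower over all genes. No gene of the J-domain group, the small heat shock proteins, the nucleotide exchange group, the organelle HSP90 genes or the ubiquitin genes passed such a p at any time. In CGR8 cells 1 was higher (Cct4, 0.38 ± 0.13) and 4 lower, among them Hspbp1 at -0.61 ± 0.22 and the HSP90 kinase co-chaperone gene Cdc37 at -0.45 ± 0.19, where 5.04% and 4.12% of all genes were. In the sorted cells 0 were higher and 0 to 2 lower in each comparison. Of all genes, 0.733% were lower for IAA in LG1, 0.733% between the controls, 0.89% between the phases with IAA and 0.247% for the difference of the effects. Hspb6 gave -0.84 ± 0.22 for LG1 against EG1 with IAA and -0.64 ± 0.22 for IAA in LG1, and Dnajb4 gave -0.72 ± 0.21 between the controls. In the wtSRCAP and cdSRCAP lines 2 were lower with IAA in each and 0 higher, where 4.48% and 3.99% of all genes were lower. Between the lines 1 was higher and 1 lower in controls (2.50% and 1.32% of all genes) and 3 were lower with IAA (2.19%).

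Hspa13, which encodes a microsome-associated HSP70 without the substrate-binding domain, was the gene of the wider list with the smallest p at 2, 4 and 6 h of IAA and in both SRCAP-expressing lines. It was at 38.7 and 29.9 CPM in SYAT control cells, 24.5 and 19.1 CPM after 2 h, 24.1 and 14.3 CPM after 4 h, 21.8 and 12.8 CPM after 6 h and 27.5 and 17.8 CPM after 8 h. Every IAA library was below both controls. Its log2 fold changes were -0.65 ± 0.33, -0.84 ± 0.33, -0.99 ± 0.33 and -0.60 ± 0.33, with unadjusted p-values of 0.0729, 0.0281, 0.0135 and 0.0948. The edgeR adjusted p-values were 0.462, 0.197 and 0.457 at 4, 6 and 8 h. With the exon column subtracted from the intron column, the log2 fold changes were -0.54 ± 0.60, -0.46 ± 0.60, -0.23 ± 0.60 and -0.68 ± 0.60. Their unadjusted edgeR p-values were 0.292 or more. In the wtSRCAP line it was at 27.0 and 34.4 CPM without and 9.66 and 18.0 CPM with 4 h of IAA, and in the cdSRCAP line at 24.85 and 35.0 CPM without and 12.8 and 14.0 CPM with IAA. These differences were -1.14 ± 0.33 (unadjusted p = 0.00638, adjusted p = 0.641) and -1.16 ± 0.33 (unadjusted p = 0.0056, adjusted p = 0.724). In CGR8 cells Hspa13 was at 40.5 and 42.5 CPM in controls and 36.2 and 45.0 CPM with IAA, a log2 fold change of -0.03 with an interval of -0.39 to 0.33, and after 1 h of IAA the log2 fold change was 0.02 in EG1 and -0.09 in LG1. Leaving out 0 h replicate 1 or the second replicate of the IAA group gave an unadjusted p above 0.05 at 4 h (-0.64 and -0.51) and at 6 h (-0.785 and -0.65). Hsbp1, whose product binds HSF1 trimers, was the gene of the list with the smallest p at 8 h, at 47.9 and 47.5 CPM in control cells and 39.8 and 31.7 CPM after 8 h (log2 fold change -0.42 ± 0.15, unadjusted p = 0.0199, adjusted p = 0.265), and it was also lower with IAA in the wtSRCAP line (-0.50 ± 0.21) but at -0.06 in the cdSRCAP line. Between the lines, Bag2 was lower in cdSRCAP controls, with 5.95 and 3.83 CPM against 12.8 and 8.27 CPM in wtSRCAP (log2 difference -1.12 ± 0.40, unadjusted p = 0.0202, adjusted p = 1.0), and with IAA it was at 4.86 and 3.32 CPM against 10.8 and 6.81 CPM.

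Immediate early genes respond to handling and signalling within minutes. Of 9 such genes 0 were called by adjusted p and fold in the time course, and 2, 1, 4 and 1 were higher and 0, 1, 0 and 0 lower by an unadjusted p under 0.05 at 2, 4, 6 and 8 h. Over all genes 1.37%, 3.09%, 7.93% and 5.13% were higher and 2.55%, 6.00%, 8.21% and 8.44% lower. Their part in the values of the members was not tested. In EG1 and LG1 cells with IAA 1 of 9 was higher in each (0.19% and 0.285% of all genes), with medians of 0.33 and 0.28. In the wtSRCAP line with IAA 3 of 9 were higher (2.93%), while in CGR8 cells 2 of 9 were lower (4.12%). The trophoblast marker sum was 8.38 and 12.7 CPM in SYAT control cells and 13.4 to 21.5 CPM in the libraries with IAA.

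**Figure D4:**
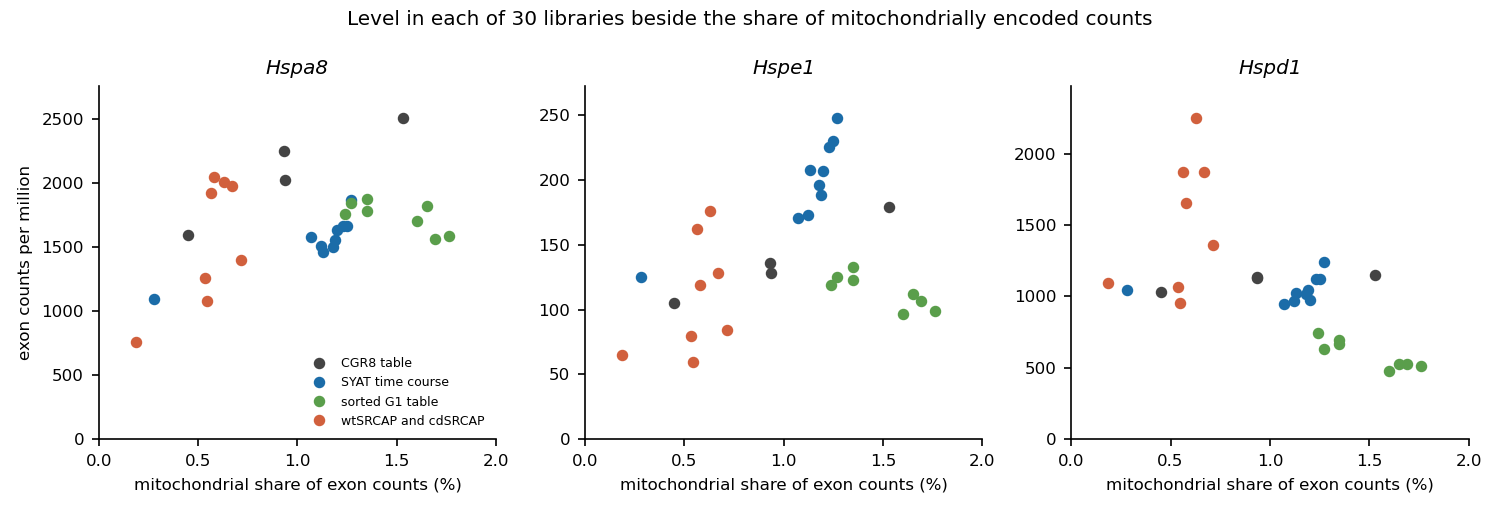
Exon CPM of Hspa8, Hspe1 and Hspd1 (vertical axes, from 0) against the mitochondrially encoded share of exon counts in each of the 30 libraries, coloured by count table; each table was scaled on its own, so levels between tables are not compared. The time course library at 0.28% is the lowest of its table in Hspa8 and Hspe1 but not in Hspd1.

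Across the 10 libraries of the time course, the genes whose log2 CPM was most like that of Hsf1 among 15064 genes were Ppp1r12a (Pearson r = 0.981), Med26 (0.972) and Slx1b (0.972). Hsf1 itself correlated with the other members in both directions. It gave 0.352 with Hsp90aa1, 0.263 with Hspd1, 0.0339 with Hsp90ab1 and 0.0268 with Hspa1b. Negative values came with Hspe1 (-0.194), Hspa1a (-0.321), Hspa8 (-0.395), Dnajb1 (-0.481) and Hsph1 (-0.633). Hspa8 was most like Crot (0.979), AK157302 (0.975) and Stt3a (0.972), and among the members it was close to Hspe1 (0.905) and Dnajb1 (0.806). For Hspa1a the nearest genes were Aldh4a1 (0.911), Fxyd5 (0.883) and Txnrd3 (0.877), and Hspa1b, its near-identical neighbour, gave 0.392. These values describe 10 libraries that share depth and preparation, and the library with 0.28% mitochondrially encoded counts enters all of them.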

How the data were processed

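Nuclear RNA-seq counts of 30 libraries were used. Per the study's methods, STAR (genome mm10) and featureCounts (GENCODE vM25, exons and introns) were the authors' aligner and counter; the submitters' notes also list SAMtools 1.10 and Picard. Libraries came from a directional kit, and the aligner's handling of multimapping reads is not given in the sources used here. The deposited values are whole-number counts per gene without normalization. The authors' deposited tables of fold changes and p-values were not used. Gene symbols came from GENCODE vM21: 55141 of 55401 identifiers matched without version.

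Each table was fitted as a whole, exon and intron counts apart, with edgeR 4.0.16 in R 4.3.3 (quasi-likelihood test, TMM, filter at a minimum count of 10 and total of 15, Benjamini-Hochberg adjustment over all genes tested). A call needs an adjusted p under 0.05 and an absolute log2 fold change above 0.5. Intervals are at 95%. Where groups of 2 libraries are said not to overlap, the share of all genes that did so was not counted. DESeq2 1.42.0 (on all genes with a count, and on the filtered genes), other size factors, no filter, pairs of groups alone, the replicate number as a block and leaving out each library were alternatives. The scripts were tested on simulated counts. Samples were grouped by GEO labels, and the study's methods call the duplicates biological. With 2 libraries a group, p-values rest on the spread within groups, estimated over all groups of a fit and moderated across genes. The slope fit is the exception: its p-values rest on the spread of the libraries around a straight line over hours. The members and the lists (59 chaperone genes; immediate early, mitochondrially encoded and cell type markers) were chosen with earlier results of these data known. All members were named; of the wider list, at most 3 genes per comparison with the smallest p, and for Hsf1, Hspa1a and Hspa8 the 3 genes of highest Pearson correlation with a mean of at least 1 CPM.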

Additional observations from a re-analysis of the deposited data

How the results depend on the processing

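The count of called members was 0 in the reported fit of each comparison, and it stayed 0 with DESeq2 with or without the filter, with size factors in place of TMM, without the filter, with only the 2 groups compared, with no bound on the fold and with the exon column subtracted. With the replicate number as a block, 1 member was called, Hsf1 at 8 h in SYAT cells (log2 fold change 0.51, adjusted p = 0.0316). No label says what a replicate number marks. Equally numbered libraries deviated together in all 6 pairs of groups of the sorted cells (correlations of 0.482 to 0.677) and of the wtSRCAP and cdSRCAP lines (0.376 to 0.512), at 0.159 in CGR8 cells and at -0.023 to 0.65 in the time course, and the block added no other call. Leaving out 1 library moved the count to between 0 and 2 at 6 h (Hsf1 and Hspa8, without replicate 1), 0 and 2 in CGR8 exons (Hspa8 and Hspe1, without control replicate 2) and 0 and 3 in CGR8 introns (Dnajb1, Hsp90aa1 and Hsp90ab1, without control replicate 2), where the single library left is assumed to vary like the other groups. The slope of Hsf1 lay between 0.0581 and 0.0788 per hour without 1 library and missed the threshold in 8 of 10 such fits. For single genes, no log2 fold change that passed an unadjusted p of 0.05 changed its sign under an alternative; 145 of the alternative values no longer passed, 55 newly did and 2345 kept their side. Over all genes, the calls by adjusted p and fold depended on the tool, the filter and the block: 2, 0, 0, 13 and 1 genes in CGR8 cells and at 2, 4, 6 and 8 h with edgeR, 123, 8, 123, 574 and 359 with DESeq2 on all genes with a count, 140, 9, 183, 647 and 445 with DESeq2 on the filtered genes (chosen after seeing the data), 386, 8, 88, 885 and 448 without the filter and 500, 0, 76, 823 and 634 with the block. In the sorted cells edgeR called 0 in each comparison, DESeq2 0 to 2 on either set of genes, the fit without the filter 3 to 94 and the block 0 to 213. In the wtSRCAP and cdSRCAP lines these were 0 to 1, 0 to 22 (0 to 23 on the filtered genes), 0 to 44 and 0 to 612. Without 6 h replicate 1 edgeR called 3163 genes, and without CGR8 control replicate 2 it called 2361. The cause of these moves was not tested. With 2 libraries a group, small changes could not be seen, least of all in the wtSRCAP and cdSRCAP lines, where the replicates differed most.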
